A study of Drosophila melanogaster with 6 samples.

Results

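The genes described here build the 2 ends of the autophagy pathway in the fly head, the machinery that forms autophagosomes and the lysosome that digests their cargo. They were taken from the platform's probe table by symbol: every gene whose symbol starts with Atg and a digit, with LMan or with Npc, and ref(2)P, Mitf, Lamp1, cathD, spin and Hexo2. That gave 41 of the 11982 genes that own a probe set, 22 of autophagy steps and 19 of lysosomal contents, each read by 1 probe set. Tor, Hexo1 and Gba1a were sought as well and no probe set carries those symbols in the table used; the Tor kinase gene stands there as mTor and is described with the other pathway genes.

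The samples are heads of Drosophila melanogaster, the fruit fly, at 25 days (aged, 3 arrays) and at 2 days (young, 3 arrays). All flies, young ones included, carried P{GawB}elavC155, a GAL4 driver inserted at the neuronal gene elav, in the strain background W*; the labels name no second transgene and no sex. Total RNA was read on Affymetrix arrays, and levels are RMA values on the log2 scale. No label states whether the arrays of an age hold separate fly collections, so the p-values speak of array-to-array spread alone, possibly a technical one.

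Autophagy encloses cytoplasm in a double membrane. A kinase complex around Atg1 starts the process, a lipid kinase complex with Atg6 and Atg14 marks the membrane, Atg9, Atg2 and the Atg18 proteins supply and shape it, and ubiquitin-like conjugation attaches Atg8a to its lipids. The receptor ref(2)P, the fly counterpart of p62, links ubiquitinated cargo to Atg8a, and after fusion the lysosome's hydrolases break the cargo down. Mitf, the fly member of the MITF and TFEB family of transcription factors, drives genes of the lysosome and of autophagy. In long-lived cells such as neurons this route is known for removing protein aggregates and worn organelles.

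The heads differed by age in more than these genes, while the medians of the 6 arrays were close, 4.85 to 4.93 over 18769 probe sets. The quartiles of the arrays did not overlap between the ages. The upper quartile was 7.85 to 7.86 on aged arrays and 7.76 to 7.82 on young arrays. The lower quartile was 3.19 to 3.21 on aged arrays and 3.24 to 3.32 on young arrays. Muscle markers fell in aged heads, 4 of 4 measured genes, with a summed linear level of 1789 to 2684 on aged arrays against 5080 to 5468 on young arrays. Of 6 haemocyte markers, Hml, NimC1 and eater rose (by 0.69, 0.60 and 0.42 on the log2 scale), Pxn fell by 0.90, and crq and He did not pass; the list's summed level was 2081 to 2344 on aged arrays and 1945 to 2081 on young arrays. Glial markers fell in 3 of 5 genes (summed level 7390 to 8130 on aged arrays and 9599 to 10462 on young arrays). The glial genes repo (-0.03 ± 0.07) and moody (-0.01 ± 0.09) did not pass. Neuronal markers fell in 3 of 5 (3753 to 4175 on aged arrays and 4335 to 4660 on young arrays). The other neuronal genes did not pass and went opposite ways, elav by -0.09 ± 0.07 and nSyb by 0.30 ± 0.11. Photoreceptor markers fell in 2 of 4 (32273 to 33651 on aged arrays and 35130 to 35851 on young arrays), and 0 of 7 fat body markers passed (16695 to 20257 on aged arrays and 19264 to 22007 on young arrays), although the yolk protein gene Yp1 ranged over 5.87 to 6.47 on aged arrays and 4.02 to 10.17 on young arrays. Gut markers stood apart on young replicate 2, with a summed level of 1123, against 126 to 127 on the 3 aged arrays and 142 to 145 on the other 2 young arrays. Control transcripts had a 3' signal above their 5' signal by 1.26 to 1.32 on aged arrays and 1.74 to 1.95 on young arrays for fly transcripts, and by 0.70 to 0.94 on aged arrays and 1.61 to 1.85 on young arrays for bacterial spike-ins. The part of these differences in the results that follow was not tested, and in whole heads a change in the number of cells of a type and a change in RNA per cell cannot be told apart.

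Of the 41 genes, 10 rose in aged heads, 1 fell and 30 did not pass (limma, Benjamini-Hochberg adjusted over all probe sets). That is 24.4% higher, where 13.0% of all probe sets were higher, and 2.44% lower, where 8.70% were. In either direction 26.8% of the members passed, near the 21.7% of all probe sets. Tested with 1 probe set per gene, as the members are read, 2118 of 11982 genes were higher and 1468 lower. There 29.9% of genes passed either way, a larger background share than the 21.7% of all probe sets. In that fit 8 of 22 autophagy-step genes passed (7 higher, 1 lower) and 5 of 19 lysosomal genes (5 higher, 0 lower). Differences lay above 0 in 29 members, or 70.7%, where 46.1% of all probe sets did. Changes were called more often among brighter probe sets, and 31 of the 41 members had a mean of at least 4.90, the median over all probe sets. Of these 31 genes 9 rose (where 23.1% of probe sets of that brightness did), 1 fell (3.23%, where 13.7% did) and 32.3% passed either way, where 36.7% did. Their differences lay above 0 in 83.9%, where 60.3% of probe sets of that brightness did. Set against probe sets of that brightness, the share of rises stood nearer to the background than against all probe sets. In the fit of all probe sets, 5 of 22 autophagy-step genes rose and 1 fell, and 5 of 19 lysosomal genes rose and 0 fell. The median difference was 0.12 for the autophagy steps and 0.08 for the lysosomal contents, against -0.02 over all probe sets and 0.07 over those at or above the median level. Over the 20 autophagy-step genes of that brightness the median was 0.12, and over the 11 lysosomal ones 0.18. Aged and young arrays did not overlap for 19 of the 41 genes, or 46.3%, where 40.8% of all probe sets did not overlap (54.8% of the 31 brighter members, where 59.9% of such probe sets did not); 15 of the 19 were higher and 4 lower in aged heads.

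**Figure D1:**
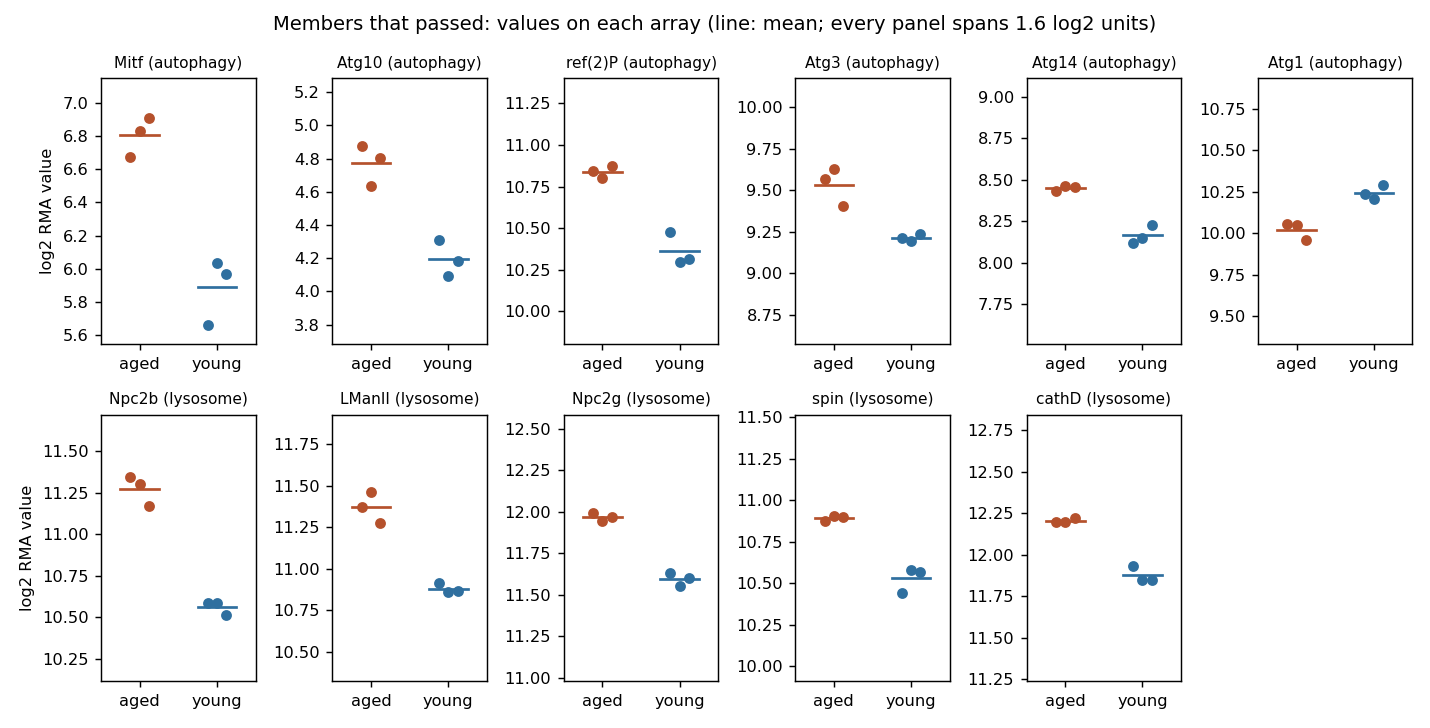
Log2 RMA values of the 11 members that passed, a panel per gene, with the 3 aged arrays left and the 3 young arrays right, points for arrays and lines for means. In each panel the ages do not overlap, Atg1 is the only one of the 11 that is lower in aged heads, and Mitf has the widest gap, 0.92.

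Among the genes of autophagy steps the transcription factor gene Mitf differed most. Mitf (CG43369) stood at 6.67, 6.83 and 6.91 on the aged arrays, against 5.66, 6.03 and 5.97 on the young arrays. Every aged array exceeded every young one, and the rise was 1.89-fold (0.92 ± 0.11 on the log2 scale, difference ± SE, limma, adjusted p = 0.00220). The rise stayed between 0.80 and 0.99 with any single array left out, and it passed in all 16 alternative settings.

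Initiation was the step with the 1 fall. Atg1 (CG10967), the kinase that starts autophagosome formation, read 10.05, 10.05 and 9.96 on the aged arrays, against 10.23, 10.21 and 10.29 on the young arrays. The ages did not overlap, but the gap was small, -0.22 ± 0.07 (adjusted p = 0.0474), and it did not pass when any single array was left out (adjusted p = 0.0670 to 0.133). Its partners did not pass. Atg101 lay at 8.36, 8.41 and 8.25 on aged arrays and 8.46, 8.48 and 8.52 on young arrays, a difference of -0.14 ± 0.07 without overlap (adjusted p = 0.184). Atg13, the regulatory subunit, differed by 0.14 ± 0.07 (adjusted p = 0.226). Atg17, the scaffold of the complex, was 6.54, 6.63 and 6.60 on aged arrays and 6.56, 5.81 and 5.92 on young arrays, so that young replicate 1 lay among the aged values. Its difference of 0.49 ± 0.18 did not pass with all arrays (adjusted p = 0.101), and without young replicate 1 it was 0.73 and passed (adjusted p = 0.00241).

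Membrane nucleation had 1 rise in 2 genes. Atg14 (CG11877), the subunit that directs the lipid kinase to autophagy, had 8.43, 8.46 and 8.46 on aged arrays, against 8.12, 8.15 and 8.23 on young arrays. The aged arrays lay close together and above all young arrays, a rise of 1.22-fold (0.28 ± 0.06, adjusted p = 0.0179) that lost its call without any one of the aged arrays (adjusted p up to 0.0694) and with arrays centred on their medians (0.24, adjusted p = 0.0560). Atg6, the Beclin counterpart in the same complex, differed by 0.06 ± 0.07 (95% interval -0.10 to 0.21). None of the 4 genes of membrane supply passed: Atg18a, which binds the lipid mark, differed by 0.18 ± 0.07 (adjusted p = 0.0974) without overlap, Atg2, a lipid transfer protein, by 0.12 ± 0.07, Atg18b by 0.09 ± 0.07 and the membrane protein gene Atg9 by -0.01 ± 0.07. At an unadjusted limma p under 0.05, 1 of these 4, Atg18a, was higher and 0 were lower.

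In the conjugation systems, 2 of 10 genes rose and 0 fell, and each of the 2 encodes an E2-like enzyme. Atg3 (CG6877), which passes Atg8a to its lipid, was 9.57, 9.63 and 9.40 on aged arrays, against 9.21, 9.20 and 9.24 on young arrays. The 3 young arrays lay close together and aged replicate 3 was the lowest of the aged; the rise was 1.25-fold (0.32 ± 0.08, adjusted p = 0.0247). It did not pass without aged replicate 1 or 2 or young replicate 2 or 3 (adjusted p up to 0.0937), nor with arrays centred on their medians (0.27, adjusted p = 0.0550). Atg10 (CG12821), which attaches Atg12 to Atg5, read 4.88, 4.64 and 4.80 on aged arrays, against 4.31, 4.09 and 4.18 on young arrays. All 6 values lie below the median level of all probe sets, where RMA values are compressed towards background, and the measured rise was 1.49-fold (0.58 ± 0.09, adjusted p = 0.00506).

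Among the other conjugation genes, the 2 partners that Atg10 joins missed the threshold. Atg12, the ubiquitin-like protein, had 8.84, 8.89 and 8.71 on aged arrays and 8.47, 8.62 and 8.59 on young arrays, a difference of 0.25 ± 0.08 (adjusted p = 0.0547). Atg5 had 7.27, 7.10 and 7.11 on aged arrays and 6.94, 6.84 and 6.98 on young arrays, 0.24 ± 0.08 (adjusted p = 0.0640). For these 2 genes the ages did not overlap either. Atg16, which completes their complex, differed by 0.12 ± 0.08 and Atg7, the E1-like enzyme of both systems, by 0.04 ± 0.09. The protease genes Atg4a and Atg4b, which process Atg8, differed by 0.04 ± 0.07 and -0.09 ± 0.06. Atg8a, the protein that coats the autophagosome, read 11.90, 11.84 and 11.86 on aged arrays and 11.88, 11.95 and 11.90 on young arrays; the difference was -0.05 ± 0.06, with a 95% interval of -0.19 to 0.10. Its relative Atg8b stood near the bottom of the scale at both ages, 3.14 to 3.35 on aged arrays and 3.33 to 3.52 on young arrays.

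The cargo receptor rose. ref(2)P (CG10360) was 10.84, 10.80 and 10.88 on aged arrays, against 10.48, 10.29 and 10.31 on young arrays. The groups did not overlap, and the rise of 1.39-fold (0.48 ± 0.07, adjusted p = 0.00474) passed in all 16 alternative settings.

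**Figure D2:**
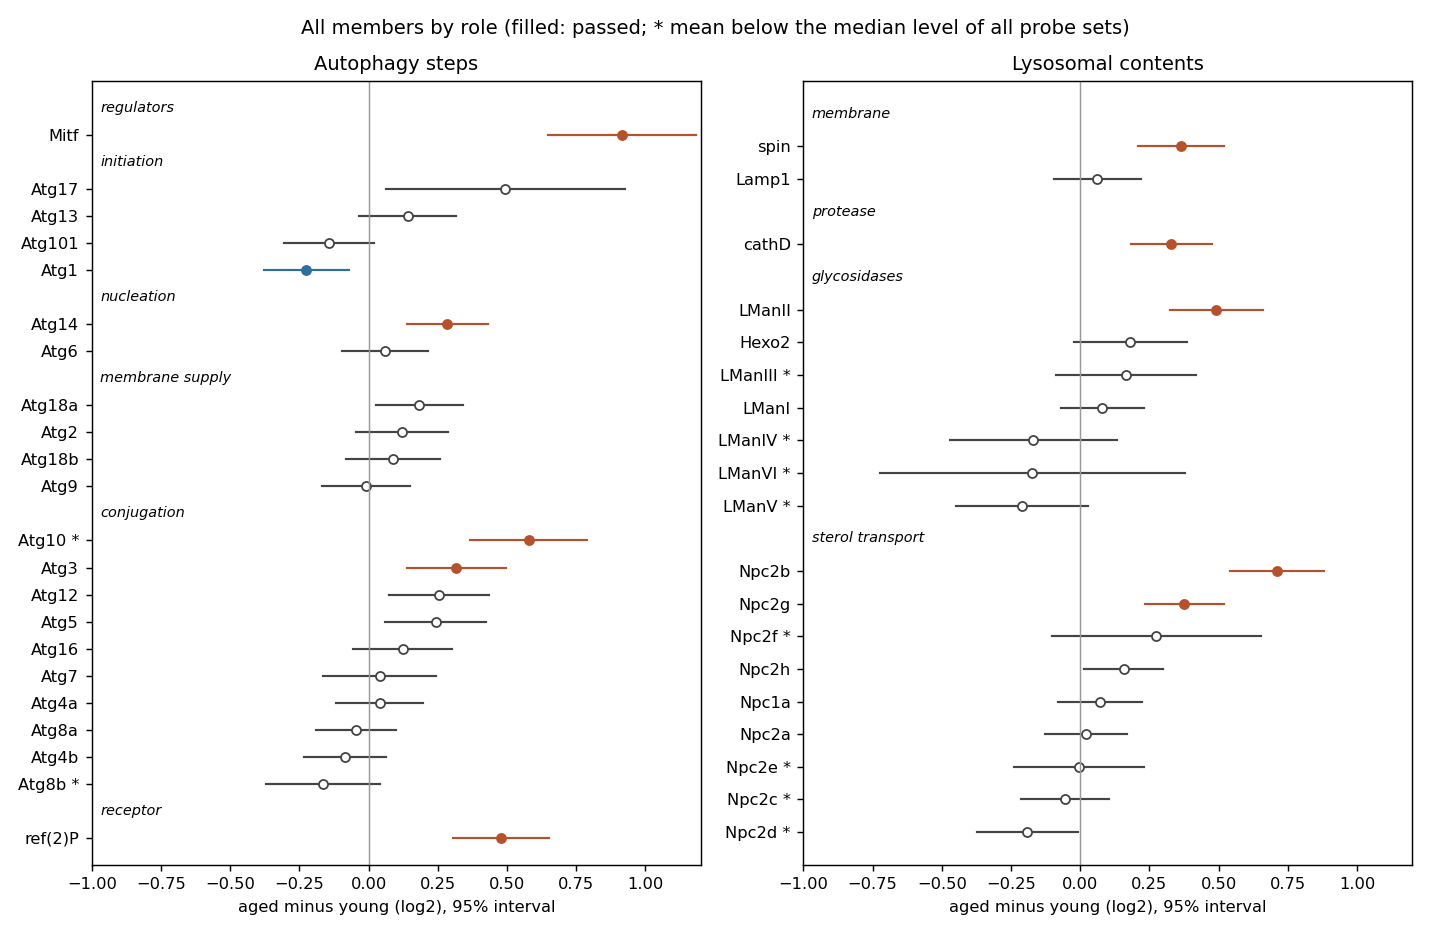
Difference between aged and young heads (log2, points) with its 95% interval (lines) for all 41 members, autophagy steps left and lysosomal contents right, grouped by role; filled points passed, and a star marks a mean below the median level of all probe sets. The rises lie in the regulator, nucleation, conjugation and receptor groups on the left (Mitf 0.92, Atg10 0.58, ref(2)P 0.48) and in all 4 groups on the right (Npc2b 0.71, LManII 0.49), and the 8 starred lysosomal genes hold 0 that passed. Of all 18769 probe sets 4071 passed (21.7%), and 3455 of these were among the 9404 at or above the median level (36.7%). Probe sets below that level thus passed less often than 21.7%, and the 0 of the starred genes is not read as a result about them.

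On the lysosomal side the genes fell into a bright set, with a mean at or above the median level, and a dim one. All 11 bright genes had a difference above 0, where 60.3% of probe sets of that brightness did. The smallest, that of Npc2a (0.02), was -0.024 with median centring and -0.0035 without young replicate 2. Of the 11 genes 5 rose, 45.5% where 23.1% of all probe sets of that brightness were higher. Of the 8 dim genes 0 passed, with values between 2.60 and 3.75 on all arrays. At an unadjusted limma p under 0.05, 0 of the dim genes were higher and 1, Npc2d, was lower. Dim probe sets were called less often in general. Over all probe sets, bright and dim, 13.0% were higher and 8.70% lower, against 23.1% and 13.7% of the bright ones. The dim and bright lysosomal genes are therefore not contrasted here. Of the 20 autophagy-step genes at or above the median level 4 rose (20%) and 1 fell (5%), where 23.1% and 13.7% of probe sets of that brightness did. The difference between the 2 ends of the pathway was not tested.

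Of the 2 membrane proteins, spin rose. The gene spin (CG8428, spinster) encodes an efflux carrier of the lysosomal membrane; it read 10.88, 10.91 and 10.90 on aged arrays, against 10.44, 10.58 and 10.57 on young arrays. The aged values were nearly equal and above all young values, a rise of 1.29-fold (0.36 ± 0.07, adjusted p = 0.00913). Lamp1, an abundant glycoprotein of the same membrane, was 12.26, 12.23 and 12.34 on aged arrays and 12.15, 12.24 and 12.26 on young arrays. The arrays of Lamp1 overlapped, and its difference was 0.06 ± 0.07 (95% interval -0.10 to 0.22).

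The aspartic protease gene cathD (CG1548), which encodes cathepsin D, had 12.20, 12.20 and 12.22 on aged arrays, against 11.93, 11.85 and 11.85 on young arrays. The aged arrays stood above all young ones by a narrow and even margin, 1.26-fold (0.33 ± 0.06, adjusted p = 0.0101), and the rise lost its call only with both young replicate 2 and aged replicate 3 removed (adjusted p = 0.0699).

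The lysosomal alpha-mannosidases, which trim mannose from glycoproteins, lie in 2 places. LManI and LManII are neighbours in the RefSeq annotation, and LManIII, LManIV, LManV and LManVI follow each other in another cluster with 0 genes between them. LManII (CG6206) was 11.37, 11.46 and 11.27 on aged arrays, against 10.91, 10.86 and 10.87 on young arrays. The groups were well apart, a rise of 1.41-fold (0.49 ± 0.07, adjusted p = 0.00392). Its neighbour LManI read 7.53, 7.43 and 7.50 on aged arrays and 7.45, 7.40 and 7.38 on young arrays; these overlapped, and the difference was 0.08 ± 0.06 (adjusted p = 0.428). The 4 genes of the other cluster were all dim and did not pass, with differences of -0.21 to 0.17. LManVI was highest on young replicate 2, at 3.55 against 2.69 and 2.64 on the other young arrays. On the aged arrays it was 2.89, 2.88 and 2.60. Young replicate 2 is the array with high gut markers. Without that array the difference of LManVI was 0.12, where it was -0.17 with all arrays. Among the young arrays LManV was also highest there (3.75), LManIV (2.93) lay below young replicate 3 (3.20), and LManIII was lowest (2.68). Any link of these values to the gut markers was not tested. Hexo2, a beta-hexosaminidase gene, differed by 0.18 ± 0.09 with overlap (9.55, 9.54 and 9.63 on aged arrays, 9.56, 9.34 and 9.29 on young arrays; adjusted p = 0.187). The overlap came from young replicate 1, and without it the difference was 0.26 and passed (adjusted p = 0.0404).

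Sterol transport held the largest rise of the lysosomal genes. NPC2 proteins bind sterol in the lysosome's lumen and hand it to NPC1 in the membrane, and the fly has a family of Npc2 genes, some of which are also known to bind microbial lipids. Npc2b (CG3153) stood at 11.35, 11.30 and 11.17 on aged arrays, against 10.58, 10.59 and 10.51 on young arrays. No array of 1 age came near the other age, and the rise was 1.64-fold (0.71 ± 0.07, adjusted p = 0.00108). Npc2g (CG11314) had 11.99, 11.95 and 11.97 on aged arrays, against 11.63, 11.55 and 11.60 on young arrays, a rise of 1.30-fold (0.38 ± 0.06, adjusted p = 0.00581). Npc2h, its direct neighbour in the annotation, read 11.46, 11.43 and 11.40 on aged arrays and 11.31, 11.27 and 11.24 on young arrays. For Npc2h the ages did not overlap, yet 0.16 ± 0.06 did not pass (adjusted p = 0.114).

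The genes whose loss is best known for sterol storage did not pass. Npc2a was 11.70, 11.69 and 11.68 on aged arrays and 11.73, 11.62 and 11.65 on young arrays, 0.02 ± 0.06 (95% interval -0.13 to 0.17). Npc1a, the membrane partner, was 9.94, 9.94 and 10.05 on aged arrays and 9.93, 9.87 and 9.92 on young arrays, 0.07 ± 0.06 (95% interval -0.08 to 0.22); its ages were barely apart. The remaining 4 Npc2 genes, Npc2c, Npc2d, Npc2e and Npc2f, were dim, and their differences ran from -0.19 for Npc2d to 0.27 for Npc2f. Npc2f had 3.14, 3.25 and 3.46 on aged arrays and 2.77, 3.36 and 2.89 on young arrays; its difference was 0.16 to 0.45 with single arrays left out, and it passed without young replicate 2 (0.45, adjusted p = 0.0273). Npc2c, Npc2d and Npc2e form a cluster of neighbours.

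**Figure D3:**
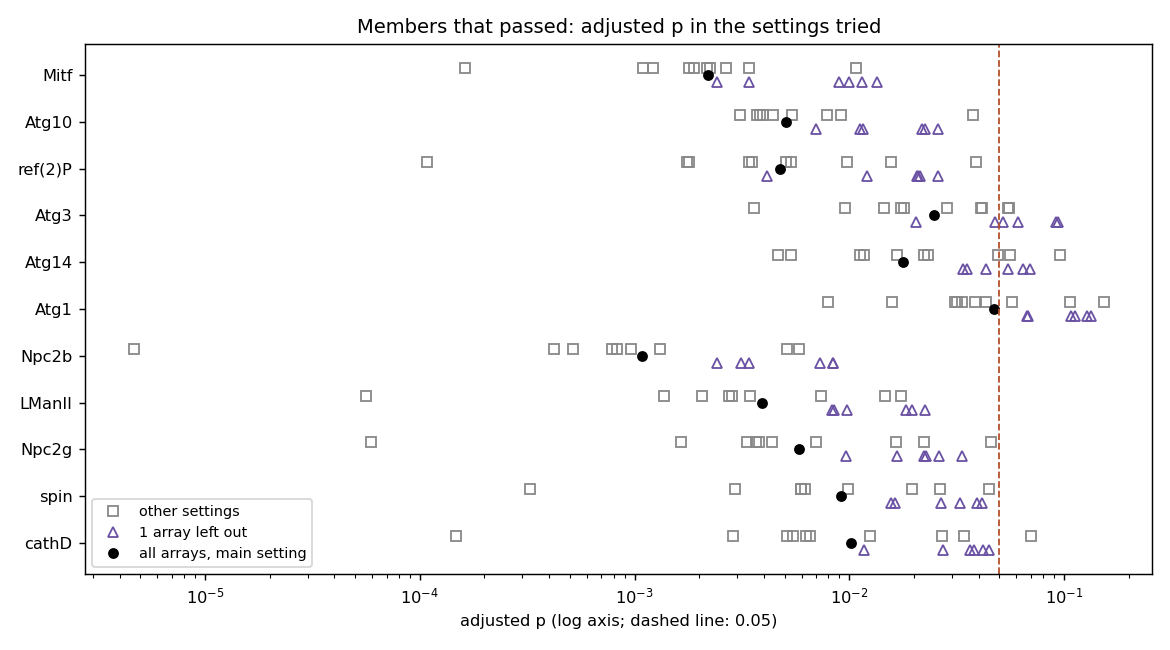
Adjusted p (log axis) of the 11 members that passed, in the main setting (filled circles), with 1 array left out (triangles) and in the other settings tried (squares); the dashed line is the threshold, 0.05. All triangles of Mitf, Atg10, ref(2)P and the 5 lysosomal genes lie left of the line, and those of Atg3, Atg14 and Atg1 lie partly or wholly right of it.

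Single arrays bore on the calls, among the members mostly on those of the autophagy steps. With each array left out in turn, 3 to 6 autophagy-step genes and 5 to 6 lysosomal genes passed. The autophagy-step count was 6 with all arrays, and 3 without aged replicate 1 and without aged replicate 2. Calls over all probe sets dropped as well, from 4071 to 2302 without aged replicate 1 and to 2432 without aged replicate 2. Of the 11 genes that passed, 8 did so with every single array left out, and 7 (Mitf, ref(2)P, Atg10, Npc2b, Npc2g, LManII and spin) in every setting in which they were tested. None of the 11 changed sign in any setting. Of the 30 genes that did not pass, 7 did so in at least 1 setting: Atg17, Hexo2 and Npc2f as given above, and Atg12, Atg5, Atg18a and Npc2h where fewer or brighter features were tested, the variance was modelled otherwise or arrays were weighted. The probe sets of Npc2b and spin have IDs ending in _s_at, which can match more than 1 gene, and that of LManII ends in _a_at, which is shared by transcripts of 1 gene.

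**Figure D4:**
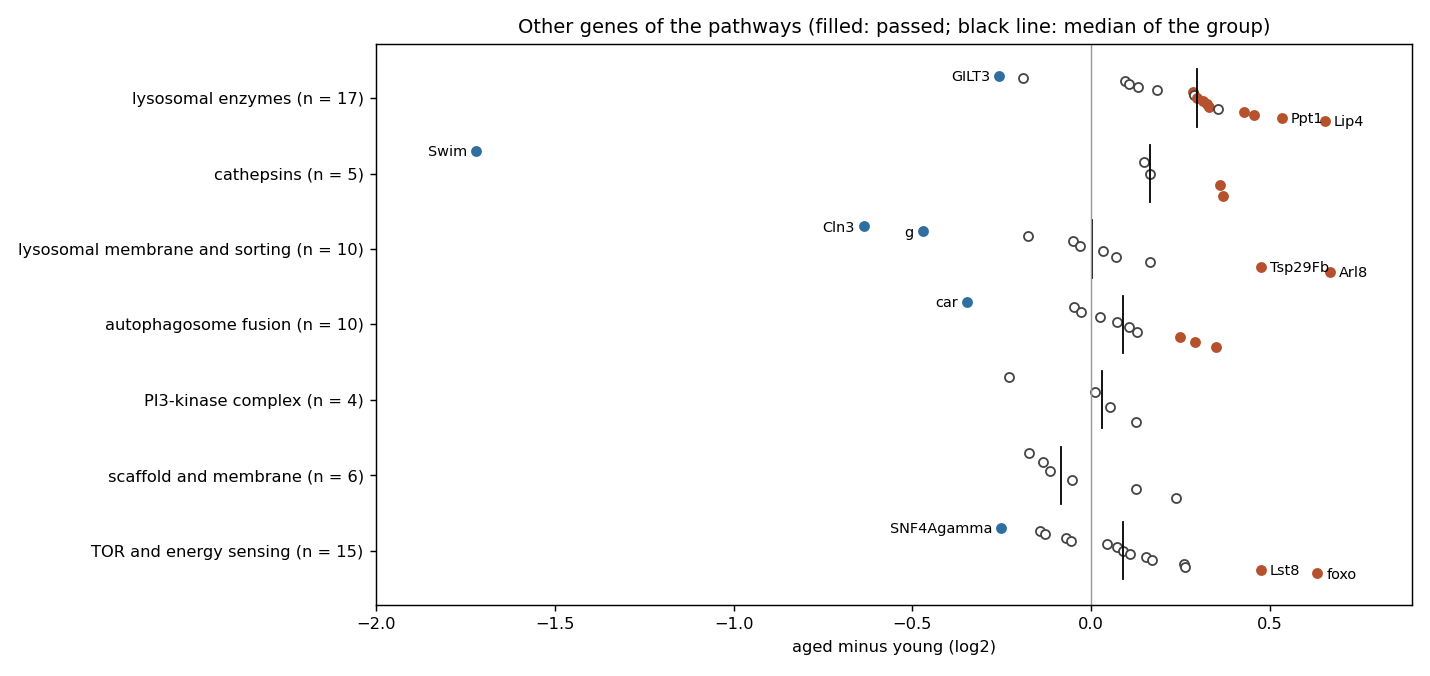
Differences between aged and young heads (log2) of 67 further genes of autophagy and the lysosome, a row per group, with a point per gene, filled where it passed, and a black line at the group's median. The enzymes lie mostly right of 0, with a median of 0.30, and the group for membrane and sorting reaches both ways, from Cln3 at -0.64 to Arl8 at 0.67.

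Other genes of the same pathways were read from a list of 87, of which 67 were measured by an own probe set. In these, 18 rose (26.9%, against 13.0% of all probe sets) and 6 fell (8.96%, against 8.70%), with a median difference of 0.11. Of the 67 genes 64 lay at or above the median level, and of these 28.1% rose and 9.38% fell, with 37.5% passing either way, near the 23.1%, 13.7% and 36.7% of probe sets of that brightness. The count of 24 that passed was 12 without aged replicate 2 or aged replicate 3, 14 without aged replicate 1 or young replicate 3, and 10 with both young replicate 2 and aged replicate 3 removed. Of the 32 genes listed for the lysosome 13 rose (40.6%) and 4 fell (12.5%), among the falls Swim, which encodes a secreted protein. Of the 35 of autophagosome formation, fusion and its control 5 rose (14.3%) and 2 fell (5.71%). Of all probe sets 13.0% were higher and 8.70% lower, and of those at or above the median level 23.1% and 13.7%. Of 17 lysosomal enzyme genes 9 rose, or 52.9%, and 1 fell, with a median of 0.30. All 9 were among the 15 at or above the median level. Of these 15 genes 60.0% rose and 6.67% fell, where 23.1% and 13.7% of probe sets of that brightness did. With every single array left out in turn, 4 of the 9 passed.

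Lip4, a lipase gene, rose most among the enzymes, with 9.21, 9.29 and 9.02 on aged arrays, against 8.72, 8.38 and 8.46 on young arrays (0.65 ± 0.11, adjusted p = 0.00702). Ppt1, which encodes palmitoyl-protein thioesterase, was 7.26, 7.34 and 7.28 on aged arrays, against 6.57, 6.88 and 6.83 on young arrays (0.53 ± 0.09, adjusted p = 0.00742). In these 2 genes each aged array exceeded each young one. The beta-mannosidase gene beta-Man rose by 0.43 ± 0.06 and Ppt2 by 0.32 ± 0.06, and with Ids, Naglu, Gal, Sgsh and Sap-r the 9 rises ran from 0.29 to 0.65. Of these, Lip4 and Ppt1 were named for being among the largest rises that passed, and the others after their values were seen. Ids, Naglu, Gal, Sgsh and Sap-r each lost their call without at least 2 of the arrays in turn. GILT3, of a family of lysosomal thiol reductases, fell by 0.26 (SE 0.07, adjusted p = 0.0390) and did not pass without any one array other than aged replicate 3.

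Cathepsins went both ways. Of 5 measured, CtsK1 (0.37 ± 0.07) and CtsB (0.36 ± 0.07, not without aged replicate 2) rose, CtsF and CtsL1 differed by 0.16 ± 0.06 and 0.15 ± 0.06 and did not pass, and Swim fell. Swim, a secreted protein of the cathepsin fold known in the fly for carrying the Wingless signal, read 8.25, 8.33 and 8.52 on aged arrays, against 10.07, 10.08 and 10.11 on young arrays. That gap of -1.72 ± 0.08, or 3.30-fold lower in aged heads (adjusted p = 6.12e-05), was wider than that of any of the 41 members.

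The genes of lysosomal membrane and sorting gave 2 rises and 2 falls in 10. Arl8, a small GTPase that moves lysosomes along microtubules, was 8.80, 8.73 and 8.67 on aged arrays, against 8.33, 7.90 and 7.97 on young arrays (0.67 ± 0.12, adjusted p = 0.00797), and the tetraspanin gene Tsp29Fb rose by 0.48 ± 0.10, with its call lost without aged replicate 3 or young replicate 3. Cln3, a lysosomal membrane protein whose human counterpart is lost in juvenile neuronal ceroid lipofuscinosis, was 7.69, 7.93 and 7.62 on aged arrays, against 8.34, 8.34 and 8.47 on young arrays (-0.64 ± 0.10, adjusted p = 0.00425). The gene g (garnet), of the AP-3 sorting complex, fell by 0.47 (SE 0.12, adjusted p = 0.0344), and lost its call without aged replicate 1 or 3 or young replicate 1 or 2.

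In autophagosome fusion 3 of 10 rose, Vamp7 (0.35 ± 0.07), Plekhm1 (0.29 ± 0.07) and lt (0.25 ± 0.06), and car, of the same tethering complex as lt, fell by 0.35 (SE 0.08, adjusted p = 0.0197) and lost its call without any one aged array or young replicate 3. Vamp7, Plekhm1 and lt were named after their values were seen, and each lost its call without at least 2 of the arrays in turn. None of the 4 genes of the lipid kinase complex passed (median 0.03; 0 at an unadjusted limma p under 0.05), nor any of 6 scaffold genes (median -0.08), of which Tango5 (0.24) was higher and Gyf (-0.17) lower at an unadjusted p under 0.05. Of 15 genes of TOR and energy sensing, foxo and Lst8 rose and SNF4Agamma fell. The transcription factor gene foxo, which acts under insulin signalling, was 7.32, 7.27 and 7.31 on aged arrays, against 6.79, 6.66 and 6.55 on young arrays (0.63 ± 0.08, adjusted p = 0.00219). Lst8, a subunit of the TOR complexes, rose by 0.48 ± 0.09, and SNF4Agamma, the AMP-activated kinase's gamma subunit, fell by 0.25 (SE 0.07, adjusted p = 0.0495), a call lost without any one array other than young replicate 1. The Tor kinase gene itself, mTor, was 8.04, 8.07 and 8.21 on aged arrays and 8.08, 8.25 and 8.19 on young arrays, overlapping, with a difference of -0.07 ± 0.08 (adjusted p = 0.585).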

How the data were processed

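Expression in heads was measured on 3 aged and 3 young Affymetrix arrays. The deposited values are RMA values on the log2 scale; per the submitters' processing notes RMA and limma were used, at versions not given in the sources used here. Such scaling sets aside changes in total RNA. Detection calls were not used here, so no signal was judged against background, and the 3 arrays per age limit the precision. From these values, aged was compared with young by limma 3.58.1 in R 4.3.3 (lmFit, eBayes, no covariates, 6 arrays) over 18769 probe sets, without 183 controls, with Benjamini-Hochberg adjustment and a threshold of 0.05. Symbols came from the platform's table: 13647 probe sets had 1 symbol, 402 several and 4720 none here; gene IDs of 13544 matched RefSeq (Release 6 plus ISO1 MT), which served for names and neighbours only. A gene was read by its probe set with the highest mean; each of the 41 members had 1.

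Members, gene lists and tests were chosen with earlier results of these data known. The cathepsin-family genes CtsL2, CtsL3, CtsL4 and CtsK2, and mTor, were added after the data were seen. All members are named. Of the other pathway genes the rule names up to 6 of the largest rises and of the largest falls that passed. Any further pathway gene in the text, such as CtsK1 and CtsB, was named after its values were seen. Marker sums add linear values. limma was tested on simulated data. The 16 alternatives were array weights, median centring, quantile normalization, a filter keeping probe sets with 1 age's mean at or above the median level, a robust limma-trend, gene means, the brightest probe set of each gene, no _s_at, _x_at and _a_at probe sets, a block for the replicate number, each array left out, and, chosen after seeing the data, both young replicate 2 and aged replicate 3 left out.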

Additional observations from a re-analysis of the deposited data

How the results depend on the processing

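The count of 4071 probe sets that passed (59.9% of them higher in aged heads) was 2302 to 4027 with single arrays left out and 2492 with both young replicate 2 and aged replicate 3 removed; centring arrays on their medians gave 48.8% higher, and 4 autophagy-step genes (Atg3 and Atg14 did not pass), 5 lysosomal genes and 19 further pathway genes. With 1 probe set per gene 29.9% of 11982 genes passed, with 8 autophagy-step and 5 lysosomal genes. Autophagy-step genes that passed numbered 3 to 6 and lysosomal genes 5 to 6 with single arrays left out, and lysosomal genes 2 without _s_at, _x_at and _a_at probe sets, where 15 of the 19 were tested. Further pathway genes numbered 12 to 25 with single arrays left out and 10 without the 2 arrays together. The median difference of the autophagy steps was 0.078 with median centring, 0.068 with quantile normalization, 0.10 with array weights and 0.10 to 0.14 with single arrays left out. That of the lysosomal genes was 0.18 above the median level, where 11 were tested, 0.035 with median centring, 0.13 with quantile normalization and 0.072 to 0.11 with single arrays left out. The causes were not tested. Same-numbered arrays of the ages deviated with correlations of -0.06 to 0.10 across probe sets, not each best with its own number, so the numbers were not taken to pair them; with the replicate block 3343 probe sets, 4 autophagy-step genes and 5 lysosomal genes passed, and Atg1 and Atg3 did not. Genes that did not pass changed sign in some settings: Atg7 (-0.0037 with median centring, -0.046 with quantile normalization, -0.0087 with array weights, -0.00048 without the 2 arrays together, -0.028 to 0.10 with single arrays left out), Atg4a (-0.0040 with median centring), Atg9 (-0.040 to 0.025 with single arrays left out), LManVI (0.22 without the 2 arrays together, -0.33 to 0.12 with single arrays left out), Npc2a (-0.024 with median centring, -0.0035 to 0.052 with single arrays left out), Npc2e (0.071 with quantile normalization, -0.076 to 0.095 with single arrays left out) and Npc2c (0.0069 with quantile normalization).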

Other observations

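The probe table names 4 more genes of the cathepsin family, looked up after the data were seen. CtsL3 rose by 0.51 ± 0.09 (limma, adjusted p = 0.00734), with 7.18, 7.00 and 7.08 on aged arrays, against 6.53, 6.47 and 6.72 on young arrays. CtsK2 differed by 0.17 ± 0.07 (adjusted p = 0.108) without overlap of the ages, and CtsL2 and CtsL4 stayed between 2.74 and 3.89 on all arrays.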
